A study of Homo sapiens with 4 samples.

Results

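In HCT116 cells, 2500 regions of open chromatin lay in dense clusters, out of 40447 regions open in all libraries of the study and 78788 regions in all. HCT116 is an established human colorectal cancer cell line, used here as the wild type. The assay was ATAC-seq, which uses a transposase to cut accessible DNA and attach adapters for sequencing, with 50000 cells per library. The control cells had received 0.1% DMSO, the solvent, for 6 h, and the stressed cells 0.5 µg/ml tunicamycin for 6 h, with 2 libraries in each group that the series calls biological replicates. Peaks of the 4 lists that shared at least 1 bp were merged into regions, and a region with a peak in all 4 lists is called common here. Common regions close to each other were stitched together, and a stitched run of 6 or more is called a dense cluster. The widest gap bridged within a dense cluster was 12489 bp, and the narrowest gap beside one that was not bridged was 12524 bp. This gave 328 dense clusters, whose 2500 regions are called members and made up 6.18% of the common regions. The members were thus chosen by position and by presence of a peak in the 4 lists, and the layout and strength of the clusters are given as a description.

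Open regions are the promoters, enhancers and other regulatory DNA that transcription factors keep free of nucleosomes. They are spread unevenly. Long stretches hold none, while gene-rich stretches and groups of neighbouring enhancers hold many side by side, and enhancers stitched in this way are often treated as 1 unit. Tunicamycin stops cells from attaching sugar chains to asparagines of new proteins, and unfolded glycoproteins build up in the endoplasmic reticulum. The sensors IRE1, PERK and ATF6 then activate transcription factors such as XBP1 and ATF4. The study asked which open chromatin differs between stressed and control cells, and the clusters raise the further question of whether neighbouring regions move as 1 block.

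The authors' lists held 56566 to 62526 peaks per library, with tunicamycin replicate 2 the longest. No read totals were used. The number of reads at the summit of each peak, recovered from the authors' fold and p-value, had a median of 15 or 16 per library over all peaks, which limits the precision of weak regions. Gene names were not assigned to regions, because no annotation of hg19, the build of the lists, was used.

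The clusters were mostly short runs of regions. Of the 328, 252 (76.8%) held 6 to 8 regions and 48 held 10 or more, and the median was 7. Their spans ran from 5.57 kb to 140.8 kb, with a median of 33.7 kb and quartiles of 25.2 and 41.9 kb. Together they covered 11.6 Mb, of which the members themselves took 5.36%. Neighbouring members lay a median of 4874.5 bp apart (quartiles 1315.5 and 8110.5 bp), and 473 of the 2172 gaps (21.8%) were of 1 kb or less. Just inside the limit on size stood 119 clusters of exactly 6 regions with a median span of 25.1 kb, and just outside it 316 clusters of 5 regions with a median span of 22.3 kb. In 83 clusters the next common region outside lay within 15 kb. Dense clusters also lay near each other, with 39 of the 306 distances between neighbouring clusters under 100 kb.

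Chromosomes 19 and 17 held the most clusters. Chromosome 19, known for its high gene density, had 50 clusters with 409 members, which was 19.4% of its 2111 common regions. Chromosome 17 followed with 43 clusters and 330 members (14.4% of its common regions), then chromosome 16 with 24 clusters (10.3%) and chromosome 20 with 15 (9.46%). Together chromosomes 17 and 19 held 29.6% of the members and 10.9% of all common regions. Chromosome 1 had 36 clusters, but its 271 members were 6.61% of its 4097 common regions, close to the share over all chromosomes. At the other end, chromosome 4 had 1 cluster of 8 regions (0.471% of its 1700 common regions), chromosome 18 had 2 (1.77%), chromosome 7 had 4 (1.80%), chromosome 13 had 2 (1.96%), and chromosome X had none among 535 common regions. The copy number of chromosomes in this line was not taken into account. Its part in these shares, and in the reads of single clusters, was not tested.

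**Figure D1:**
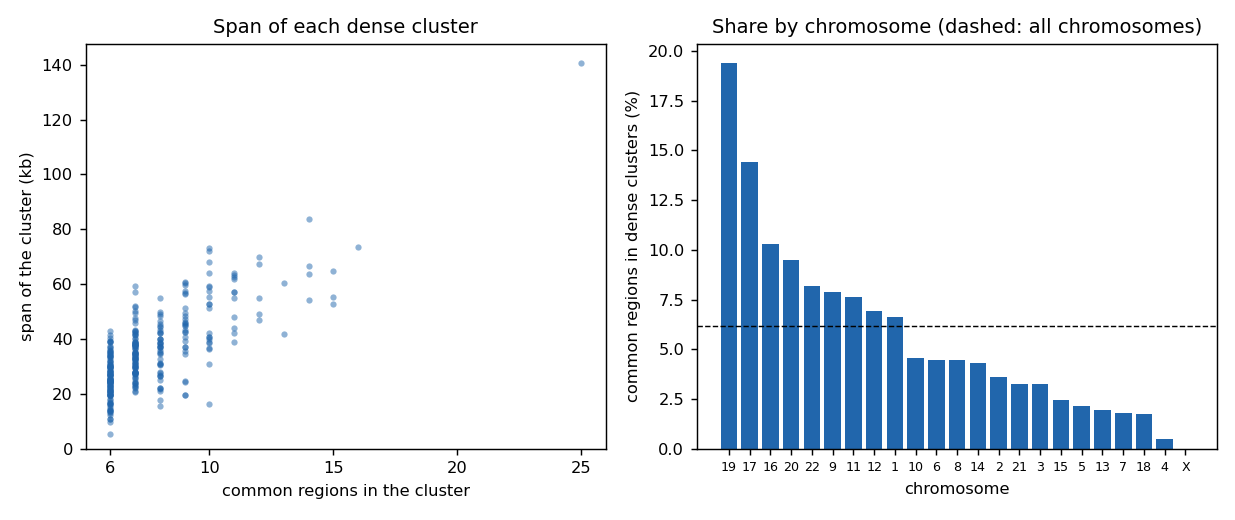
Left, the span of each of the 328 dense clusters in kb against its number of common regions; right, the percentage of each chromosome's common regions that lay in dense clusters, with a dashed line at the 6.18% of all chromosomes. The cluster of 25 regions spans 140.8 kb and stands apart from the rest, and chromosomes 19 and 17 reach 19.4% and 14.4%.

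The cluster with the most regions, 25, lay on chromosome 19 at 49520940 to 49661720 (hg19) and was also the longest, at 140.8 kb. The next, with 16 regions in 73.7 kb, was on chromosome 12 at 6419719 to 6493385. Clusters of 15 regions were chr9:139916642-139981553, chr10:102771299-102826552 and chr16:67189297-67241972. Those of 14 were chr9:34591746-34675341, which at 83.6 kb was the second longest, chr20:33851017-33917634, chr19:17393502-17457269 and chr19:41076043-41130136. The 2 clusters of 13 were chr17:73840911-73901365, the longer, and chr16:3200440-3242169. The densest packing was elsewhere. On chromosome 15 at 91473293 to 91478860, 6 regions shared 5.57 kb, or 1.08 regions per kb, against a median of 0.217 per kb over the dense clusters. Clusters on chromosome 8 at 145688226 to 145704617 (10 regions) and on chromosome 19 at 11485201 to 11495137 (6 regions) followed with 0.610 and 0.604 per kb.

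Members carried more reads at their summits than other common regions, over a higher local background. The median member had 23 summit reads in both DMSO libraries, 23 in tunicamycin replicate 1 and 27 in replicate 2. Common regions in clusters of 2 to 5 had 19 and 20 reads after DMSO and 20 and 23 after tunicamycin, and those with no other common region within the stitching gap had 17, 17, 17 and 19. The order was the same in each of the 4 libraries. The local background, the number of reads that the peak caller expected at the summit, differed by a larger ratio. Its median was 1.12 and 1.17 reads for members after DMSO and 1.11 and 1.23 after tunicamycin, against 0.354 to 0.382 for regions with no neighbour. The authors' fold of the median member was lower, at 10.6 to 11.8, than that of regions with no neighbour, at 12.7 to 14.4. The stretch over which the caller took the background is not known. Members have close neighbours by the rule. Whether these raised the background, and so lowered the fold and weakened the q-value, was not tested.

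By q-value the classes stood in another order than by summit reads. The percentile rank of a region is its place among the 40447 common regions of the same library, with 100 the strongest. Ranked by summit reads the median member stood at 65.5 and 64.2 after DMSO and 62.7 and 65.5 after tunicamycin. Ranked by q-value it stood at 48.5, 49.9, 48.0 and 49.1 in the same libraries, below the 51.8 to 52.3 of regions with no neighbour and close to the 48.3, 48.4, 48.2 and 48.6 of regions in clusters of 2 to 5. Members held 7.39% and 7.48% of all summit reads of common regions after DMSO and 7.28% and 7.32% after tunicamycin, more than their 6.18% of the regions in every library. Their peaks were of ordinary width, with medians of 180 to 189.5 bp against 181 to 187 bp for regions with no neighbour. These are descriptions over regions of the same 4 libraries, so no test was made.

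**Figure D2:**
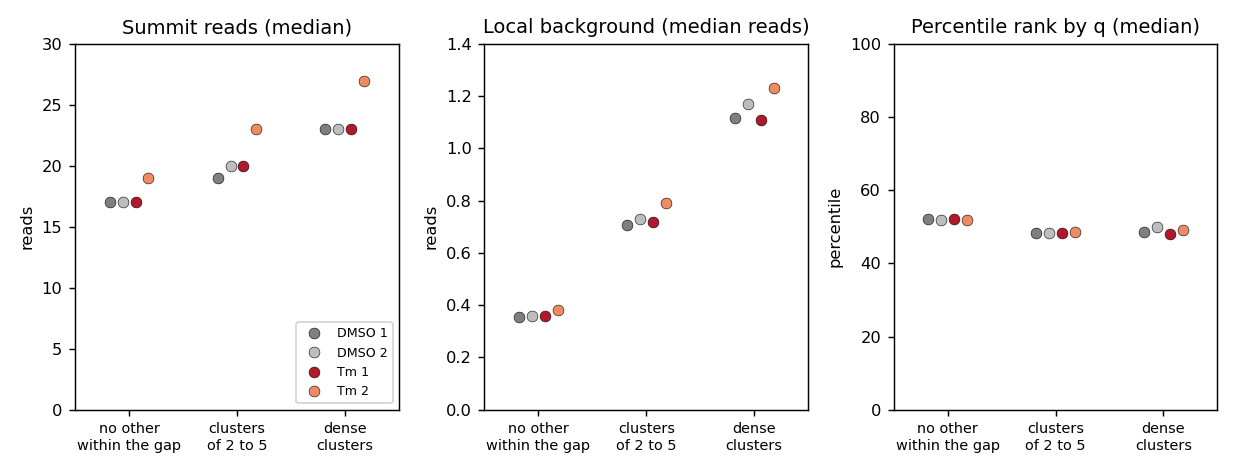
Median summit reads, median local background in reads and median percentile rank by q-value (100 the strongest) for common regions with no other within the gap, in clusters of 2 to 5 and in dense clusters, with 1 point per library. Summit reads and background rise from left to right in all 4 libraries, while the ranks stay between 48.0 and 52.3.

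A dense cluster was a mixture of strong and weak regions. The mean percentile rank by q-value of its members, averaged over the 4 libraries, spanned a median of 70.3 points from the weakest to the strongest member, and between 23.6 and 97.3 points over the 328 clusters. The strongest member had a median of 3.34 times the summit reads of the weakest, and held a median of 23.4% of its cluster's summit reads. The 656 outer members, those at the ends of a cluster, had a median rank of 51.1 and the 1844 inner members one of 46.9. Their median summit reads were 23 and 24.5, and their median background 0.925 and 1.25 reads. Inner members have a neighbour on each side by definition, and whether this raised their background was not tested. Strength was nearly independent between members of 1 cluster: the correlation of the mean score across 9029 pairs of members was 0.0408, as a description over pairs that share libraries.

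The strongest member was near the top of all common regions in some of the 5 clusters with the most regions and less so in others. In the cluster of 15 on chromosome 10 it lay at 102790827 to 102791051 and stood at ranks 99.2 and 99.8 after DMSO and 98.6 and 99.4 after tunicamycin, with 81, 98, 75 and 94 summit reads. In the cluster of 25 on chromosome 19 it lay at 49631182 to 49631379, with ranks of 92.2 and 97.1 after DMSO and 97.9 and 96.6 after tunicamycin. The other 3 were weaker, with mean ranks of 81.1 on chromosome 12 (6485881 to 6486039), 88.6 on chromosome 9 (139916642 to 139916885) and 87.2 on chromosome 16 (67212073 to 67212306). The groups overlapped in 3 of these 5 regions. Over all common regions, tunicamycin was higher without overlap in 18.0% and lower without overlap in 18.3%. On chromosome 12 the tunicamycin ranks of 82.0 and 68.5 lay below the DMSO ranks of 90.2 and 83.6, and on chromosome 9 those of 96.2 and 86.8 lay above 84.9 and 86.6. Neither difference passed the test over all common regions (limma adjusted p = 0.816 and 0.840).

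The spans of the dense clusters held 702 further regions that were listed in 1 to 3 libraries. Among them, 41 had a peak in both tunicamycin lists and in neither DMSO list, which is 1.42% of the 2878 such gained regions of the series. The reverse pattern, a peak in both DMSO lists and in neither tunicamycin list, was found for 40, which is 2.74% of the 1462 lost regions. The 4 patterns with 1 library of each group held 13 to 33 regions, or 0.994% to 1.75% of their totals. Inside the clusters gained and lost regions were thus about equal in number, while over the series gained regions were the more numerous. No test was made of this difference, and gained regions join the 2 longest lists.

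No member was called higher or lower in rank after tunicamycin. Regions that lacked a peak in any of the 4 lists were outside this test, so changes that cost a region its peak could not be seen. With 2 libraries per group, smaller changes can also be missed. The count of 0 thus does not show that the members were unchanged. Ranks by q-value over all common regions were turned into normal scores, in which 0 is the median region and 1 unit is 1 SD of all common regions, and the groups were compared with limma, adjusted over all 40447 regions. Of the 2500 members 0 were called higher and 0 lower at an adjusted p under 0.05, where limma called 0.0346% of all common regions higher and 0.0173% lower (0.0519% in all). At an unadjusted limma p under 0.05 stood 190 members (7.6%), beside 7.33% of all common regions. Of these, 98 were higher (3.92%, background 3.72%) and 92 lower (3.68%, background 3.61%). In 418 members (16.7%, background 18.0%) the groups did not overlap and tunicamycin was the higher, and in 518 (20.7%, background 18.3%) it was the lower. The median score change of the members was -0.03, beside 0.00 over all common regions, and 1321 members (52.8%) were lower after tunicamycin, as were 20208 of the 40447 common regions. By library, the members' median score was -0.04 and 0.00 after DMSO, then -0.05 and -0.02 after tunicamycin, so the groups overlapped. Without DMSO replicate 2, limma called 4 members higher, of 25 higher and 2 lower among all common regions, among them the 3 higher members with the smallest p-values in the fit of all libraries (adjusted p = 0.00392, 0.0151 and 0.0109). The alternatives that kept all 4 libraries called 0, also when regions were ranked by summit reads.

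The members with the smallest p-values are given as values only, since none passed the test. The member on chromosome 11 at 65788606 to 65788776 stood at ranks 4.07 and 46.8 after DMSO and 78.5 and 66.6 after tunicamycin, with 10 and 21 against 31 and 29 summit reads. Its score differed by 1.52 ± 0.412 (SE, limma adjusted p = 0.212), and its DMSO libraries were further apart than its tunicamycin libraries. On chromosome 5 at 148846121 to 148846282 the ranks were 0.0433 and 7.57 after DMSO and 45.6 and 24.0 after tunicamycin, on 4 and 9 against 16 and 14 reads. On chromosome 20 at 345656 to 345819 they were 0.842 and 27.4, then 52.6 and 58.8. All 3 were among the weakest common regions in DMSO replicate 1 and stronger in DMSO replicate 2. Without DMSO replicate 1 their score differences were 0.69, 1.03 and 0.74, and without DMSO replicate 2 they were 2.35, 2.92 and 2.53. On chromosome 22 at 21996265 to 21996701 the ranks were 95.7 and 96.2 after DMSO and on 78.2 and 69.4 after tunicamycin, with 55 and 58 against 39 and 39 reads, a score difference of -1.11 ± 0.280 (SE, limma adjusted p = 0.158). On chromosome 9 at 130713000 to 130713190 they were 30.03 and 47.3, then 2.59 and 1.76. On chromosome 19 at 17580509 to 17580672 they were 56.7 and 65.0, then 10.6 and 21.6. In all 6 the groups did not overlap, which the choice by p-value favours.

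Whole clusters were then compared, by the mean score of their regions in each library. The fit ran over all 8465 stitched clusters of 2 or more common regions. limma called 0 of them after adjustment (0.0%), and so 0 of the 328 dense clusters. At an unadjusted p under 0.05 stood 37 dense clusters (11.3%), where the background was 7.6% of all clusters in the fit. Of these, 18 were higher (5.49%, background 3.54%) and 19 lower (5.79%, background 4.05%). The count of 37 depended on the fit. It was 2 with a prior spread that does not follow cluster size, 24 by the median score, 34 by the fold and 40 by summit reads. With regions of wide peaks only, at least 130 bp in all libraries, it was 33 of 326. With the replicate number as a block it was 45. The share over all clusters was not taken in these other fits, so whether the excess over the background holds in them is not known. The mean scores of 57 dense clusters (17.4%) were higher in both tunicamycin libraries than in both DMSO libraries, and those of 73 (22.3%) were lower in both, against 18.3% each way over all clusters. Changes of a whole cluster were small: the quartiles of the 328 were -0.13 and 0.11 units, the lowest -0.57 and the highest 0.62.

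**Figure D3:**
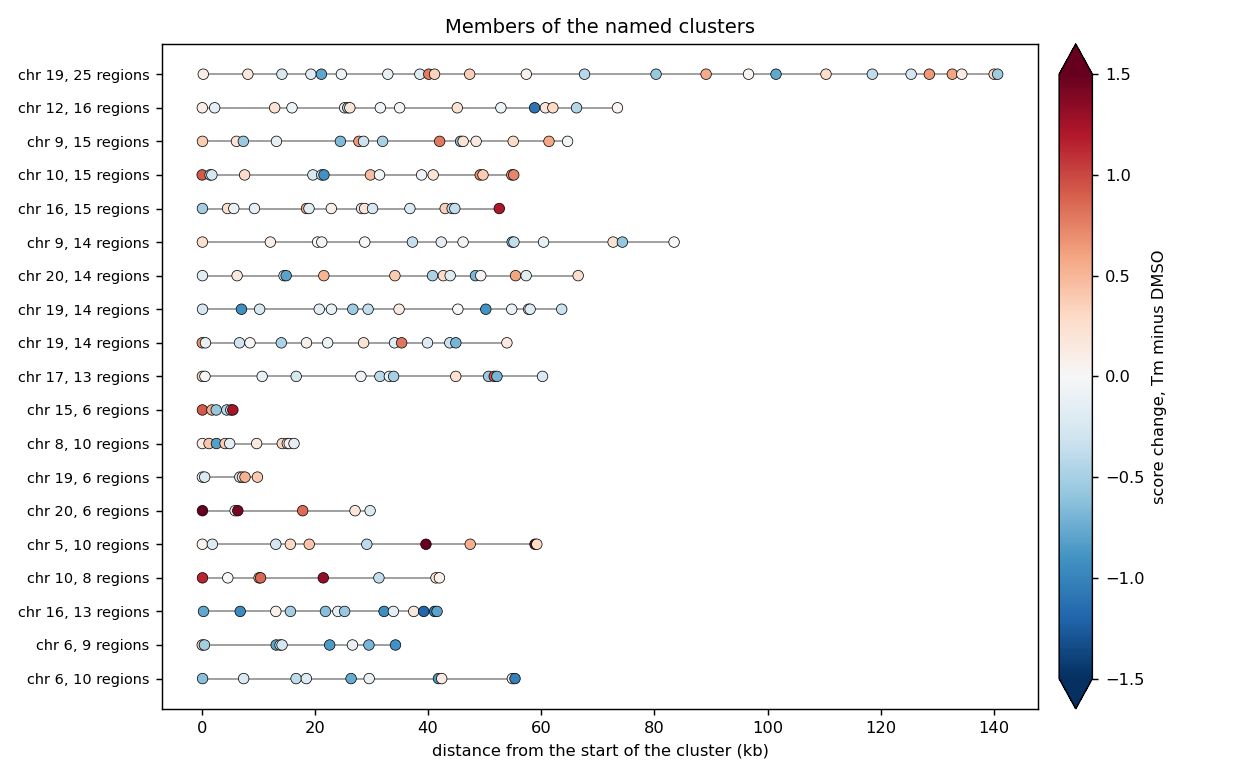
The 19 named clusters drawn to scale from their own start in kb, each circle a member coloured by its score change (tunicamycin, Tm, minus DMSO; blue lower, red higher). Most clusters mix both colours, while 11 of the 13 members of the lower cluster on chromosome 16 lie below 0.

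The dense cluster with the smallest p-value was lower after tunicamycin along most of its length. It lay on chromosome 16 at 3200440 to 3242169, with 13 regions in 41.7 kb. Its regions had a mean rank of 53.7 and 54.4 after DMSO and of 39.4 and 39.0 after tunicamycin, and their summit reads summed to 460 and 479 against 357 and 394. Replicates of a group were closer to each other than the groups were, which the choice of this cluster by p-value favours. As a share of all summit reads of common regions, the cluster after tunicamycin stood at 0.735 of its level after DMSO. The mean score differed by -0.57 ± 0.102 (SE), which fell short of the threshold (limma adjusted p = 0.0580). Ranked by summit reads, an alternative added after the data were seen, the same cluster was called (-0.55 ± 0.0757, SE, limma adjusted p = 0.00356). It was also called with regions of wide peaks only, at least 130 bp in all libraries (limma adjusted p = 8.30e-05), without DMSO replicate 1 (0.0305) and without DMSO replicate 2 (0.0147). It was not called when ranked by the fold (limma adjusted p = 0.405) or by the p-value (0.0553), without tunicamycin replicate 1 (0.415), without replicate 2 (0.428), with the median in place of the mean score (0.707) or with a prior spread that does not follow cluster size (0.631).

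Of its 13 members, 11 were lower and 2 higher after tunicamycin. In 9 both tunicamycin ranks lay below both DMSO ranks, as in 18.3% of all common regions. The cluster was picked by its p-value, which favours such members, so the excess is no support for a change. The strongest, at 3221972 to 3222630, stood at ranks 98.5 and 98.5 after DMSO and 94.3 and 92.9 after tunicamycin, with 83 and 86 against 64 and 69 summit reads. The first member, at 3200440 to 3201047, went from 56 and 63 reads to 43 and 49. Near the other end, the member at 3241486 to 3241695 stood at ranks 88.1 and 77.9 after DMSO and 54.0 and 43.4 after tunicamycin, on 49 and 42 against 29 and 30 reads. The member at 3239566 to 3239778 stood at 63.2 and 44.2, then 24.0 and 7.01. The member at 3213461 to 3213589 did not follow, with 25 and 29 reads after DMSO and 29 and 30 after tunicamycin, and neither did the one at 3237775 to 3238025, with 25 and 27, then 22 and 34. No single member passed the test (smallest limma adjusted p = 0.403).

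The other lower clusters were neighbours on chromosome 6, in the stretch of its short arm known for histone genes. The first, at 27486933 to 27521429, had 9 regions with mean ranks of 46.3 and 41.6 after DMSO and 31.1 and 29.8 after tunicamycin, and 8 of the 9 were lower. Its mean score differed by -0.45 ± 0.118 (SE, limma adjusted p = 0.350), and it was called with regions of wide peaks only (limma adjusted p = 0.0128). By the median score of its members it differed by -0.15. The second, at 27543855 to 27599340, had 10 regions, 8 of them lower, with mean ranks of 61.7 and 62.1 against 46.9 and 54.3 (-0.39 ± 0.125, SE, limma adjusted p = 0.499). Without tunicamycin replicate 1 its difference was -0.22. Its strongest member, at 27560368 to 27560679, stayed near the top in all libraries, at ranks 98.0, 99.1, 95.4 and 97.5. Its last member, at 27599105 to 27599340, stood at 50.2 and 50.8 after DMSO and 12.1 and 19.6 after tunicamycin. The tip of the short arm of chromosome 16 and this part of chromosome 6 are also known to hold groups of tRNA genes, which RNA polymerase III transcribes. Whether members of these clusters lie at tRNA genes was not tested.

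The clusters with the smallest p-values among those higher after tunicamycin held some members that were weak in control cells. On chromosome 20 at 382528 to 412381, 6 regions had mean ranks of 39.0 and 39.1 after DMSO and 51.2 and 48.9 after tunicamycin, and 100 and 105 against 138 and 148 summit reads (0.62 ± 0.145, SE, limma adjusted p = 0.254). Its first member, at 382528 to 382766, had 6 and 8 reads after DMSO and 17 and 22 after tunicamycin, and the one at 400215 to 400507 had 24 and 23, then 39 and 38. The other 4 members changed by -0.21 to 1.42 units. The dense cluster before it, at 305835 to 345819, holds the member at 345656 described above, but its mean score differed by 0.15 ± 0.133 (SE, limma adjusted p = 0.850), with 3 of its 8 members higher. On chromosome 5 at 148806581 to 148865891, 7 of 10 regions were higher, with mean ranks of 38.2 and 35.7, then 45.8 and 41.2 (0.43 ± 0.116, SE, limma adjusted p = 0.350). On chromosome 10 at 112285672 to 112327747, 6 of 8 were higher, with mean ranks of 36.5 and 43.3, then 49.4 and 56.3 (0.46 ± 0.128, SE, limma adjusted p = 0.362). Its first member, at 112285672 to 112285915, had 18 and 17 reads after DMSO and 29 and 35 after tunicamycin, while the strong member at 112290150 to 112290388 stayed at ranks 86.4 to 87.3 in the 4 libraries. The reads themselves are not scaled between libraries. As a share of all summit reads of common regions, the clusters on chromosomes 20, 5 and 10 stood after tunicamycin at 1.28, 1.13 and 1.19 of their level after DMSO. With regions of wide peaks only, the differences of these 3 higher clusters were smaller, at 0.21 on chromosome 20, 0.14 on chromosome 5 and 0.13 on chromosome 10. By the median score of its members the cluster on chromosome 20 differed by 0.12.

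**Figure D4:**
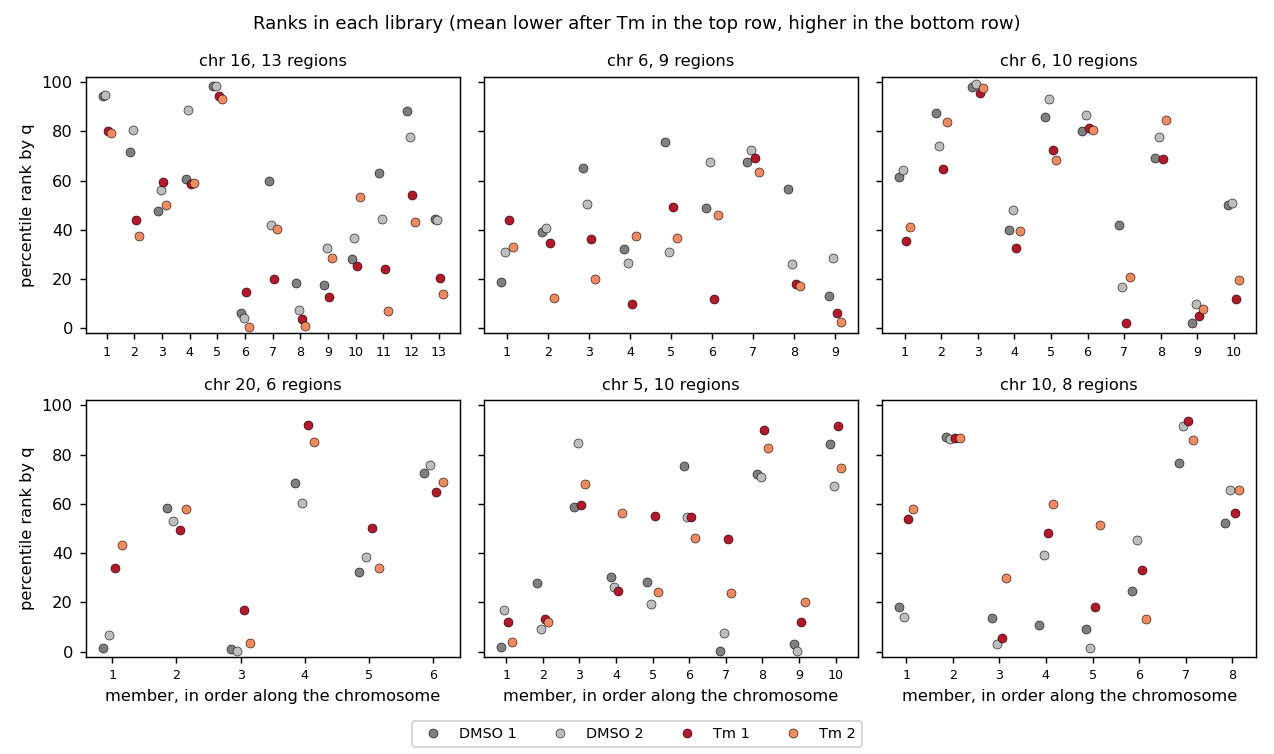
Percentile rank by q-value of each member of 6 clusters in each library, with members in order along the chromosome; grey points are DMSO and red or orange points tunicamycin (Tm). In the cluster of 13 on chromosome 16 the coloured points lie below the grey ones at 9 members, and in the cluster of 6 on chromosome 20 3 members lie higher in both tunicamycin libraries. Of all common regions, 18.3% lay lower and 18.0% higher in both tunicamycin libraries than in both DMSO libraries. The 6 clusters were picked by p-value, which favours such members.

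Most of the clusters with the most regions had small mean changes. The mean rank of the cluster of 25 was 41.0 and 42.1 after DMSO and 38.7 and 40.04 after tunicamycin, and its mean score differed by -0.0055 ± 0.0767 (SE, limma adjusted p = 0.993), with 13 members higher and 12 lower. Over the 9 clusters of 14 or more regions the change ran from -0.29 to 0.15 units. The 2 clusters of 13 changed by -0.11 on chromosome 17 and by -0.57 on chromosome 16. The lowest of those with 14 or more was the cluster of 14 on chromosome 19 at 17393502 to 17457269, in which 13 members were lower and 1 higher (-0.29 ± 0.110, SE, limma adjusted p = 0.549). Its DMSO libraries, at mean ranks of 51.5 and 62.1, differed more from each other than DMSO replicate 1 did from the tunicamycin libraries, at 46.9 and 47.4. The highest of those was the cluster of 15 on chromosome 10, at mean ranks of 50.3 and 56.0, then 58.5 and 61.2. The 3 densest clusters changed by 0.22, 0.02 and 0.11 units, each with an adjusted p of at least 0.766 in the same limma fit.

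Members of a cluster moved together weakly. Across 9029 pairs of members of 1 cluster, the correlation of their score changes with tunicamycin was 0.0338. The same pairs gave -0.00244 for the difference between the DMSO replicates and -0.00576 for that between the tunicamycin replicates. In clusters of 2 to 5 regions the values over 17977 pairs were -0.0125, -0.0336 and -0.0229. With ranks by summit reads, which leave out the local background, the members' value was 0.0709 for tunicamycin against DMSO, beside 0.00805 and 0.00221 for the replicates. In clusters of 2 to 5 regions it was 0.0422, beside 0.00174 and 0.0112. In both kinds of cluster and by both rankings, the value for the treatment difference was above those for the replicate differences. In clusters of 2 to 5 regions by q-value, however, all of them were negative. The treatment difference also averages 2 libraries per group and so has less noise, which makes the values unlike in kind. All of these correlations are small, and they are descriptions over pairs that share libraries and often neighbours, with no test. The value for members by q-value was 0.0207 without the lower cluster on chromosome 16, and 0.00598 without the 6 clusters with the smallest p-values, which had been picked for moving as a unit. The value by summit reads was not taken without these clusters.

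Distance did not order the values simply. Members further apart than the stitching gap, up to 25 kb, gave 0.0708 for tunicamycin against DMSO, on 2889 pairs, beside -0.00497 and 0.000732 for the replicate differences. From 5 kb up to the stitching gap the 3 values were 0.0393, 0.0380 and 0.0281, so all were positive there. They remain unlike in kind, since the treatment difference averages 2 libraries per group. Members 1 to 2.5 kb apart gave -0.0403, -0.0766 and -0.118 on 404 pairs. At 25 to 50 kb, members gave 0.00629 for tunicamycin against DMSO, on 1882 pairs. For the same difference, pairs with neither region in a dense cluster gave 0.0130 from the stitching gap up to 25 kb. From 5 kb up to the stitching gap such pairs gave 0.0227.

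Few clusters moved as a block. All members moved one way with tunicamycin in 4 dense clusters, each time to a lower score, on chromosome 5 at 140070855 (6 regions), chromosome 12 at 8380121 (6), chromosome 19 at 35615465 (7) and chromosome 19 at 49061449 (6). The difference between the DMSO replicates had 4 such clusters, and that between the tunicamycin replicates 7. At least 80% of members moved one way in 52 clusters, 33 lower and 19 higher, against 43 and 51 for the replicate differences. The mean change of the 328 clusters had an SD of 0.181 units, where the spread between replicates alone would give 0.149. For single members these values were 0.451 and 0.399.

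**Figure D5:**
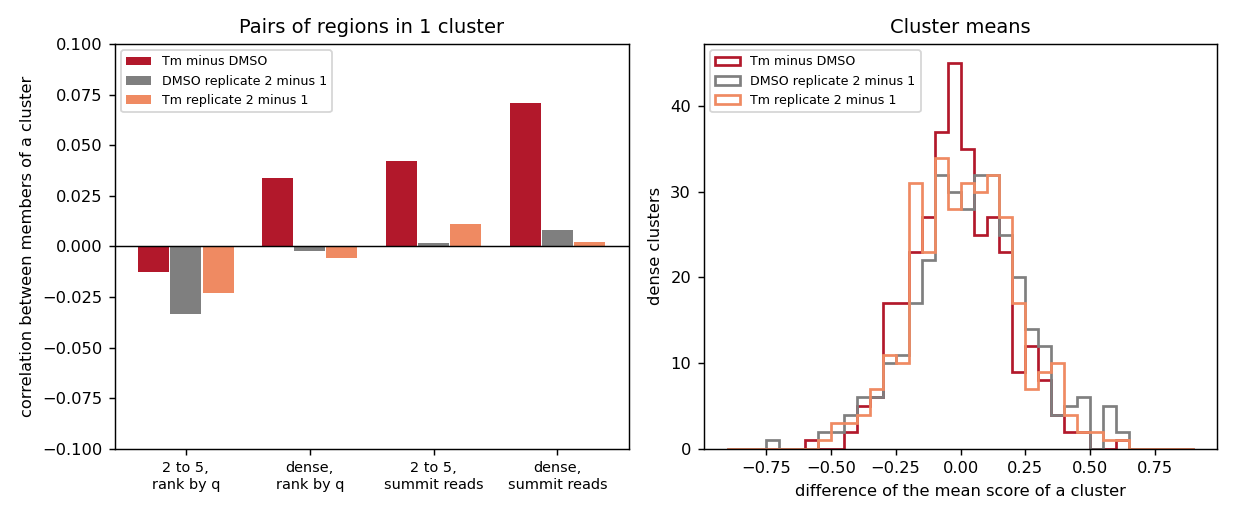
Left, correlation between regions of 1 cluster for the difference between tunicamycin (Tm) and DMSO and for the replicate differences, by 2 rankings; right, number of dense clusters by the difference of their mean score, where the treatment difference averages 2 libraries per group and so has less noise than a difference of single libraries. The bar for dense clusters reaches 0.0338 by q-value and 0.0709 by summit reads, and the 3 histograms overlap.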

How the data were processed

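The authors deposited 1 list of peaks per library on hg19. Per the submitters' processing notes, tools included MACS2 2.2.7.1, deepTools, Bowtie2 2.3.5.1, Picard 2.18.23, SAMtools and Trim Galore; order and settings were not given in the sources used here. Each deposited list gives positions, a score, the fold (a ratio of summit reads to local background, each plus 1), the −log10 p-value and −log10 q-value, and the place of the summit. The folds, scores and −log10 values are the authors' and served to rank or filter peaks within their list.

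Libraries were grouped by title. Where a library had several peaks in a common region, the one with the smallest q-value stood for it. Whole-number summit reads and the background were recovered from the fold and the −log10 p-value for 100% of peaks, within 0.001; 0.287% to 0.405% of peaks per list had another solution, and the closest was taken. What the caller counted as a read, and how far reads were extended, is not known. Read totals are unknown, so no interval that needs them is given. Summit reads are printed as recovered, not scaled between libraries. Lists of unequal length were ranked over the same common regions, with a rank offset of 0.5.

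Scores were compared with limma 3.58.1 (R 4.3.3) and Benjamini-Hochberg adjustment at 0.05, the prior spread following a region's mean score or a cluster's log2 number of regions. In the fit with wide peaks, ties in this number were broken by less than 0.01. Other steps used Python 3.11.15, pandas 2.3.3, numpy 2.4.6, scipy 1.17.1 and matplotlib 3.10.9, and merging, stitching and fits were tested on simulated data. The labels do not say whether replicates came from separate cultures, so p-values measure the spread between these libraries.

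Clusters named are the 10 with the most regions (ties by longer span), the 3 longest, the 3 densest and, as none was called, the 3 with the smallest p each way. Members named are the 3 with the smallest p each way and the strongest member of the 5 clusters with the most regions. Others within named clusters, and the clusters whose members all moved one way, were picked after their values were seen. The members and lists were chosen with earlier results of these data known. Gene lists set out for this work were not used, since the gene table at hand is of GRCh38. Regions are printed by hg19 position, with no sequence. Alternatives were other gaps, sizes, q limits and merging, other ranks, wide peaks, other priors, a replicate block and each library left out. Ranks by summit reads, cluster medians and clusters left out were added after seeing the data.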

Additional observations from a re-analysis of the deposited data

How the results depend on the processing

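The number of clusters followed the rule's own limits. A gap of 5 kb gave 14 dense clusters with 89 members and a median span of 11.7 kb, and a gap of 25 kb gave 1041, 9724 and 65.8 kb. With at least 5 regions there were 644 clusters and 4080 members, with at least 8 there were 120 and 1163, and with a −log10 q of at least 10 there were 117 and 828. Leaving out 1 library gave 373 to 412 clusters with 2842 to 3212 members and median spans of 32.7 to 33.1 kb. The other settings stayed within 1.5 times. limma called 0 to 4 members, and 0 to 2 dense clusters, when 1 library was left out. Without DMSO replicate 2, where both were highest, it called 25 regions higher and 2 lower over all common regions, and 12 clusters higher and 5 lower over all clusters (the higher dense one lies on chromosome 8 at 27449780 and is named after its values were seen). It called 2 dense clusters with wide peaks (6 higher and 5 lower over all clusters), 1 by summit reads (2 and 4) and 2 (14 and 12) with the replicate number as a block, which were the cluster of 13 on chromosome 16 (adjusted p = 0.000134) and that of 6 on chromosome 20 (0.0245). The block called 0 members. Over the common regions the correlation of the replicate differences of the 2 groups was 0.0111, and the labels give no pairing beyond the number. The members' median change stayed between -0.05 and -0.01. The correlation between members of a cluster was 0.0190 by fold, 0.0477 with wide peaks, 0.0709 by summit reads, 0.0459 for neighbours, 0.0503 and 0.0176 with gaps of 5 and 25 kb, 0.0207 without the chromosome 16 cluster, 0.00598 without 6 clusters, and 0.0215 to 0.0253 with 1 library left out. Of 121 values of the 12 clusters and members with the smallest p under alternatives, 10 passed the threshold. Their direction says nothing of stability, since they were picked by p. The cause of these changes was not tested. Few reads limit the weak members, down to 4 at the summit on chromosome 5.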
